A study of Mus musculus with 3 samples.

Results

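Erbb3, Ednrb, Fabp7, Foxd3 and Mia, 5 genes best known from glia and neural crest, were followed through otic vesicles of mouse embryos at E10.5 (5 of 32285 genes measured). They were taken by name because earlier results of these libraries had linked them to the level of SOX10 in otic epithelium. The values that chose them are their lower level in otic cells of the Sox9 mutant library and their level in otic cells with and without Sox10 transcripts. Both are therefore given as descriptions and were not tested.

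The study set SOX9 against Wnt activity in the otocyst, the epithelial sac that forms the inner ear, and asked how SOX10 then controls the endolymphatic part. Otic vesicles were pooled and dissociated, and the transcripts of single cells were counted by unique molecular identifiers (UMIs). The group called CD is 1 library of Sox9 Y440X/+ embryos, which carry 1 wild type copy of Sox9 and 1 copy with a nonsense change, where X marks the stop codon, and the control group is 2 libraries of wild type embryos (WT replicates 1 and 2). The number of embryos in each pool is not given in the labels, which also do not say whether the WT pools are separate litters. The p-values below therefore measure only how far these samples scatter, and that scatter may be technical. No group lacks SOX10, so dependence of any gene on SOX10 was not tested.

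SOX10 is a SOXE transcription factor related to SOX8 and SOX9. In migrating crest cells and early glia it drives the genes for growth factor receptors and adhesion molecules, and it is also made in otic epithelium. Erbb3 encodes the neuregulin receptor that Schwann cell precursors need in order to survive and migrate along axons. Ednrb encodes the endothelin B receptor, required by melanocyte and enteric crest. Fabp7 encodes the brain fatty acid-binding protein of radial glia and Schwann cell precursors. Foxd3 encodes a forkhead repressor that marks young crest. Mia encodes a small secreted protein first known from melanoma and cartilage.

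SOX factors bind a short core that is often written CAAAG or CAATG, and the stretches before the transcription starts of Ednrb and Mia are shown because each of them holds such letters. RefSeq's promoter sequences (build GRCm38.p6, not the mm39 build of the counts) matched 4 of the 5 genes, all but Erbb3. The 200 bases from 250 to 51 before the annotated start were searched for CAAAG and CAATG on both strands, and these windows overlap no exon of GENCODE vM21 for any of the 4 genes. Each sequence is written 5′ to 3′ along the strand of its gene, and the capitals mark the matches, all of which are on the opposite strand and so read CTTTG or CATTG. Ednrb (chr14:103843752-103843951, minus strand) has 2 matches of CAATG, and Mia (chr7:27181200-27181399, minus strand) has 2 of CAAAG.
Ednrb: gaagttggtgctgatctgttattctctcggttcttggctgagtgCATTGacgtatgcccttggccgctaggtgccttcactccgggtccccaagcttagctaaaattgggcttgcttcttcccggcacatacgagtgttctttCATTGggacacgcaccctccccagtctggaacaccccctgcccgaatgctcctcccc
Mia: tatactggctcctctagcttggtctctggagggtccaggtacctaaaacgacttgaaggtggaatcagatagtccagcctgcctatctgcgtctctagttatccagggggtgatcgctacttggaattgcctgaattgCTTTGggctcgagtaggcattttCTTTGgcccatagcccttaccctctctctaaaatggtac
The windows of Fabp7 and Foxd3 hold neither run of letters. At least 1 match was present in 58.1% of 32851 promoter windows of the same length, and at least 2 were present in 23.5%. A match is a string of letters and not a binding site, and no binding was measured.

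After filtering, the CD library held 8548 cells, WT replicate 1 held 6564 and WT replicate 2 held 11018, with 157373393 to 202584468 UMIs per library before filtering. Otic cells were those with Epcam and at least 2 UMIs of the otic genes Fbxo2, Hmx2, Hmx3 and Pax2. They numbered 2778 in CD, 2537 in WT replicate 1 and 4083 in WT replicate 2, with median depths of 22616.5, 25431 and 18752 UMIs. All 12 otic markers were detected in each library, and 11 of 12 stood at 10 or more CPM (UMIs of a gene scaled to a total of 1000000 UMIs). These markers include Epcam, Fbxo2, Hmx2, Hmx3 and Pax2, which define the class, so the count is in part fixed by the definition. Crest and glia cells, with at least 2 Sox10 UMIs and no Epcam, numbered 161, 239 and 167 in the same order, and held all 10 crest and glia markers at 10 or more CPM. That list includes Sox10, which defines the class, and Erbb3, Ednrb and Foxd3. Mesenchyme cells, with at least 2 UMIs of Prrx1 and Twist1 together and without Epcam, numbered 1860, 1083 and 2508, of which 14 to 30 per library also met the crest definition. Libraries shared 14 to 27 cell barcodes. The 3′ tags do not read the changed codon, so the genotype itself was not checked; Sox9 in otic cells stood at 670 CPM in CD, with 414 and 342 CPM in WT replicates 1 and 2, which did not pass the test (edgeR adjusted p = 0.125).

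The cells in which each gene was most abundant differed between the 5 genes. Levels across classes are CPM over all UMIs of the class in that library, and they are compared here for the same gene only. Erbb3 was high in crest and glia cells (132 CPM in CD, then 126 and 127 CPM in WT replicates 1 and 2) and nearly as high in otic cells (88.1, 102 and 106 CPM). The ranges of these classes did not overlap. Surface ectoderm followed with 32.7 to 37.1 CPM, from only 28 to 49 cells per library. In mesenchyme, neurons, endothelium, macrophages and neural tube progenitors the highest library value was 9.73 CPM. Erbb3 was thus an abundant transcript of both SOX10-bearing classes, epithelium and crest.

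Ednrb separated these classes. It stood at 221, 211 and 184 CPM in crest and glia cells of CD, WT replicate 1 and WT replicate 2, and at 7.27, 11.3 and 10.1 CPM in otic cells. Macrophages, in which Sox10 stood at 1.89 to 3.06 CPM, held 96.6, 88.1 and 93.0 CPM of Ednrb, and neural tube progenitors 115, 88.7 and 53.5 CPM, the last from only 15 cells. Macrophages and neural tube progenitors overlapped in their levels of Ednrb. In mesenchyme Ednrb stood at 4.46 to 6.16 CPM, below the otic range.

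Fabp7 was highest in neural tube progenitors (1160, 834 and 623 CPM in CD, WT replicate 1 and WT replicate 2), followed by crest and glia (397, 373 and 579 CPM), and these ranges did not overlap. In otic cells Fabp7 stood at 5.43, 7.01 and 6.47 CPM, below its level in mesenchyme (27.3, 58.2 and 32.6 CPM) in each library. Foxd3 was a gene of the crest class: 183, 217 and 158 CPM in crest and glia against 0.394, 0.933 and 1.64 CPM in otic cells. Mesenchyme again lay above the otic cells, with 1.99 to 3.43 CPM of Foxd3. Foxd3 was found in only 22, 17 and 23 mesenchyme cells, and 17, 14 and 30 mesenchyme cells also met the crest definition. Their part in the mesenchyme values was not tested.

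Mia showed the reverse order. In both WT libraries it was most abundant in otic cells. Otic cells held 0.858 CPM in CD, with 3.21 and 6.22 CPM in WT replicates 1 and 2. Crest and glia cells held 7 UMIs of Mia in WT replicate 1 and 6 in WT replicate 2, or 1.29 and 1.66 CPM. In the CD library they held 0, which allows up to 0.747 CPM (3 counts). In mesenchyme Mia stood at 0.617, 0.484 and 0.735 CPM. Within the CD library no such order held. Neurons (1.04 CPM), neural tube progenitors (1.16 CPM), surface ectoderm (1.03 CPM) and macrophages (0.947 CPM) all lay above the otic cells, from few UMIs.

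**Figure D1:**
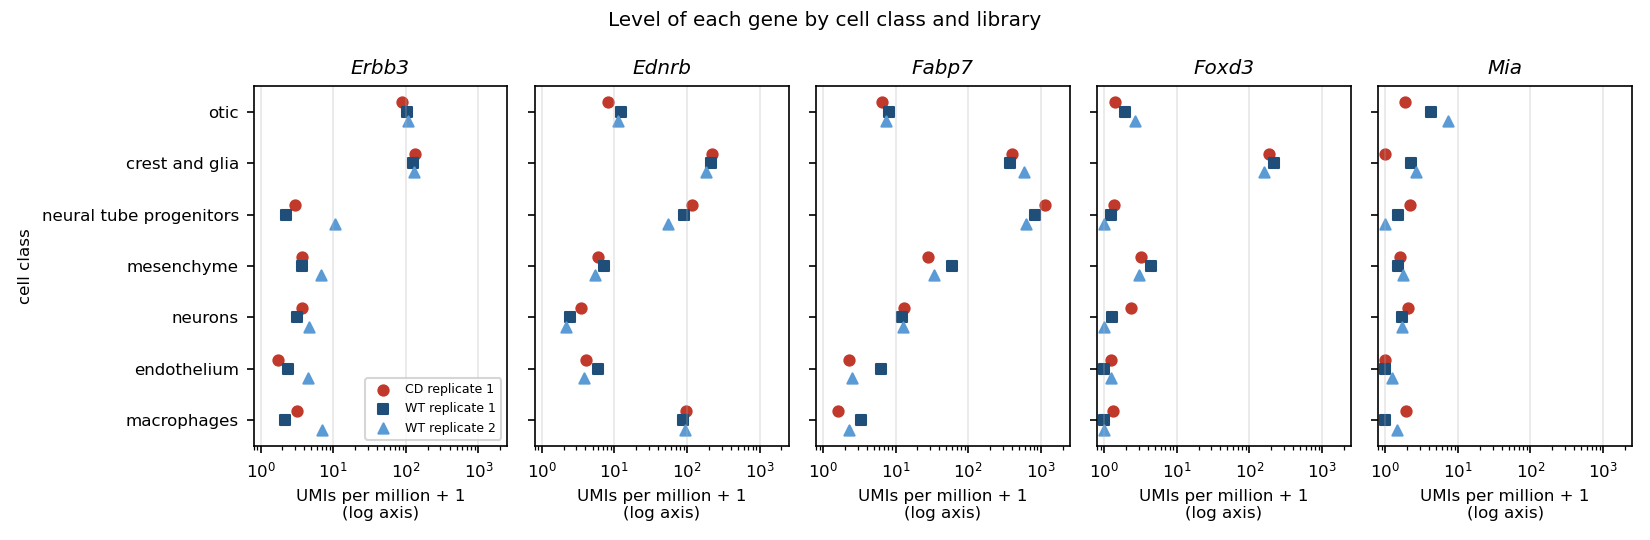
Level of each gene (x axis, CPM plus 1, log axis) in 7 cell classes (y axis), with 1 point per library (circle CD replicate 1, square WT replicate 1, triangle WT replicate 2). Erbb3 is high in otic and in crest and glia cells, Ednrb, Fabp7 and Foxd3 are at least 10 times lower in otic cells than in crest and glia, and Mia is highest in the otic cells of the WT libraries.

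In otic cells, CD gave the lowest of the 3 library values for each of the 5 genes. For the genotype comparison CPM are scaled by TMM, which corrects for the composition of each sum. Erbb3 stood at 85.9 CPM in CD, with 103 and 107 CPM in WT replicates 1 and 2 (log2 ratio of CD to the WT mean -0.29). Ednrb stood at 7.09, 11.5 and 10.3 CPM in the same order (log2 ratio -0.62), and Fabp7 at 5.29, 7.10 and 6.56 CPM (-0.37). With every cell thinned to 5000 UMIs these ratios were -0.39 for Ednrb and -0.23 for Fabp7. At full depth, the gap from CD to the nearer WT library was wider for these 3 genes than the gap between the WT libraries.

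The larger ratios belonged to the sparser genes. Foxd3 had 28 UMIs in CD, 69 in WT replicate 1 and 146 in WT replicate 2, or 0.384, 0.945 and 1.66 CPM (log2 ratio -1.76). Mia had 61, 237 and 554 UMIs, or 0.836, 3.25 and 6.31 CPM (-2.51). For Foxd3 and Mia the WT libraries stood further apart in CPM than CD and the nearer of them, although not on the log2 scale, so the size of both ratios depends on the WT library taken. All 5 genes were below both WT libraries, as were 29.8% of the 17161 genes tested in otic cells, and since the genes were chosen on this contrast the count is no test of it. The summed level of the 10 crest and glia markers, all of them detected in the otic cells of each library, stood at 199 CPM in CD against 295 and 300 CPM in the WT libraries, and that of the 12 otic markers stood at 1771 CPM in CD against 2172 and 2573 CPM. The otic list holds Oc90, which stood at 79.0 CPM (TMM-scaled) in CD against 534 and 993 CPM in WT replicates 1 and 2. That gap is wider than the gap between the summed otic levels, so the lower sum does not describe the otic markers in general. The crest list holds Erbb3, Ednrb and Foxd3 themselves, and the part of either list in the ratios was not tested.

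The Mia level of the CD otic cells came close to that of mesenchyme, the class used for comparison. In CD, 2.02% of otic cells held a Mia UMI (95% exact binomial interval 1.53 to 2.61) and 1.24% of mesenchyme cells (0.785 to 1.85) did, at median depths of 22616.5 and 18648.5 UMIs. In WT replicate 1 the shares were 6.82% and 0.923%, and in WT replicate 2 they were 9.43% and 1.20%. After thinning every cell to 5000 UMIs, which left out 44, 20 and 111 shallower otic cells and 144, 78 and 355 mesenchyme cells, the otic shares were 0.439, 1.79 and 2.95% in CD, WT replicate 1 and WT replicate 2, against 0.175, 0.0995 and 0.325% in mesenchyme. In CD, the intervals of otic cells and mesenchyme overlapped, and in the WT libraries they did not. Whether the Mia UMIs of mesenchyme are free RNA or its own transcripts was not tested, and the intervals cover counting error only.

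The share of cells with Erbb3 differed little. Erbb3 was detected in 75.3, 82.9 and 75.9% of the otic cells of CD, WT replicate 1 and WT replicate 2, and after thinning in 33.7, 37.6 and 39.9%. Mesenchyme had 0.932, 0.697 and 2.51% after thinning. Most otic cells thus held Erbb3 in each library, and 401, 563 and 615 of them held 5 or more UMIs.

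The SOXE factors themselves, which are not among the 5 genes, did not pass the edgeR test in the same cells. The 5 genes were chosen through their link to the level of SOX10 here, so the test of Sox10 is not independent of that choice. Sox10 stood at 65.2 CPM in CD, with 108 and 118 CPM in WT replicates 1 and 2 (edgeR log2 fold change -0.79, SE 0.15, adjusted p = 0.141). Sox8 stood at 3.93, 8.90 and 7.73 CPM (-1.08, SE 0.24, adjusted p = 0.256), and Sox9, the mutated gene, had a log2 fold change of 0.83 (SE 0.15). CD lay below both WT libraries for Sox10 and Sox8 and above both for Sox9. With DESeq2, Sox9 and Sox10 passed, so the call depends on the test.

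**Figure D2:**
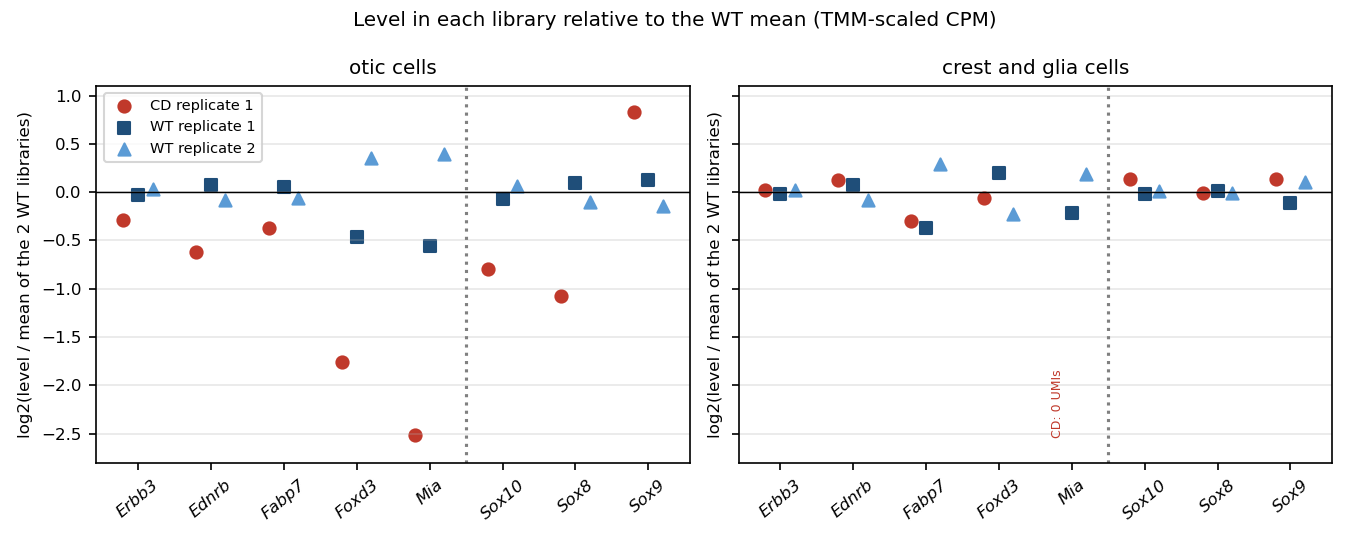
Level in each library divided by the mean of the WT libraries (y axis, log2; TMM-scaled CPM) for the 5 genes and, right of the dotted line, Sox10, Sox8 and Sox9, in otic cells (left) and in crest and glia cells (right). In otic cells the CD circle is the lowest of the 3 points for the 5 genes, Sox10 and Sox8, down to -2.51 for Mia, and the highest for Sox9. In crest and glia cells it lies above both WT points for Erbb3, Ednrb, Sox10 and Sox9, and Mia has 0 UMIs there in CD.

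Splitting the otic cells by the presence of a Sox10 UMI separated Erbb3 and Ednrb from Fabp7. Erbb3 stood at 97.1 CPM with and 61.3 CPM without Sox10 in CD, at 105 and 70.7 CPM in WT replicate 1, and at 111 and 73.0 CPM in WT replicate 2, folds of 1.58, 1.49 and 1.52. Ednrb was 1.96-fold, 1.91-fold and 1.71-fold higher with Sox10 in the same libraries, and Mia 1.23-fold, 1.56-fold and 1.39-fold. The 95% counting intervals of Mia were 0.656 to 2.47, 0.927 to 2.84 and 1.05 to 1.88. They include a fold of 1 in CD and WT replicate 1. Fabp7 was 1.16-fold higher in CD (95% counting interval 0.911 to 1.49). Its ratios were 0.516 (0.409 to 0.657) and 0.857 (0.680 to 1.09) in WT replicates 1 and 2. They put it lower with Sox10 there, beyond counting error only in WT replicate 1. Higher levels with Sox10 in all 3 libraries were found for 4 of the 5 genes, as for 32.9% of 17091 genes.

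Foxd3 was the gene with the highest folds in this split and the fewest UMIs. The otic cells without Sox10 held 3, 1 and 9 UMIs of Foxd3 in CD, WT replicate 1 and WT replicate 2. Its folds were 2.78 (95% counting interval 0.847 to 14.4), 7.18 (1.25 to 288) and 2.29 (1.17 to 5.11). It was the 1 gene of the 5 at 2-fold or more in all 3 libraries, as were 0.415% of all genes. Leaving out otic cells with a Pax3, Pax6 or Tfap2b UMI left 0.138 CPM of Foxd3 with and 0.173 CPM without Sox10 in CD, 0.374 and 0.150 CPM in WT replicate 1, and 0.417 and 0.704 CPM in WT replicate 2, so it was then lower with Sox10 in CD and WT replicate 2.

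The otic cells without Sox10 differed in more than Sox10. Their median depths were 18406, 18374.5 and 12695 UMIs, against 24806, 27034 and 20574 UMIs in cells with it. The summed level of 7 neuron markers was 533 to 749 CPM without and 194 to 261 CPM with Sox10. The part of either in the folds was not tested.

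Otic cells were also thinned to 5000 UMIs each and then sorted by the Sox10 UMIs that remained, so that depth was equal in all groups. The group at 0 Sox10 UMIs then held 1942, 1520 and 2242 cells in CD, WT replicate 1 and WT replicate 2. At full depth only 881, 364 and 811 otic cells lacked Sox10, so most cells at 0 held it before thinning. Erbb3 was then nearly level between cells with 0 and 1 Sox10 UMI in WT replicate 1 (99.1 and 100.4 CPM), and stood at 82.7 and 93.5 CPM in CD and at 101 and 114 CPM in WT replicate 2. Cells with 3 or more had 123 CPM in CD (exact 95% Poisson interval 73.8 to 191), 119 CPM in WT replicate 1 (84.0 to 163) and 133 CPM in WT replicate 2 (104 to 167), from 31, 64 and 107 cells. These intervals overlapped those at 0 Sox10 UMIs in each library (77.1 to 88.6, 92.1 to 106 and 94.8 to 107). Overlap alone does not show equal levels, and the value was highest at 3 or more in each library. At 2 Sox10 UMIs the CD interval (90.8 to 145) lay clear of that at 0, and those of the WT libraries did not. Erbb3 in CD lay below both WT libraries at 0 or 1 Sox10 UMI, and not at 2 (115 CPM against 104 and 113 CPM). Ednrb at 0, 1, 2 and 3 or more stood at 11.8, 12.6, 14.7 and 6.25 CPM in WT replicate 1. It stood at 9.10, 12.1, 11.96 and 13.1 CPM in WT replicate 2, with intervals overlapping that at 0 in both WT libraries. In CD it stood at 7.93, 8.24, 20 and 32.3 CPM, the last from 5 UMIs. The CD interval at 2 (10.6 to 34.2) lay clear of that at 0 (6.26 to 9.91). Ednrb in CD lay below both WT libraries at 0 and 1, and above both at 2 and at 3 or more, with overlapping intervals there.

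Mia was lower in CD than in both WT libraries among the cells left with 0 Sox10 UMIs. Since Mia was chosen on this contrast in otic cells, that is a description and no test. Most of these cells held Sox10 before thinning, so their Sox10 levels are not matched. Mia stood at 1.03 CPM in CD (exact Poisson interval 0.494 to 1.89) against 3.95 CPM (2.66 to 5.64) and 6.24 CPM (4.87 to 7.89) at 0 Sox10 UMIs. It had 0 UMIs in CD at 2 Sox10 UMIs, which allows up to 4.62 CPM, and at 3 or more, which allows up to 19.4 CPM, so those groups are too small to place it.

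**Figure D3:**
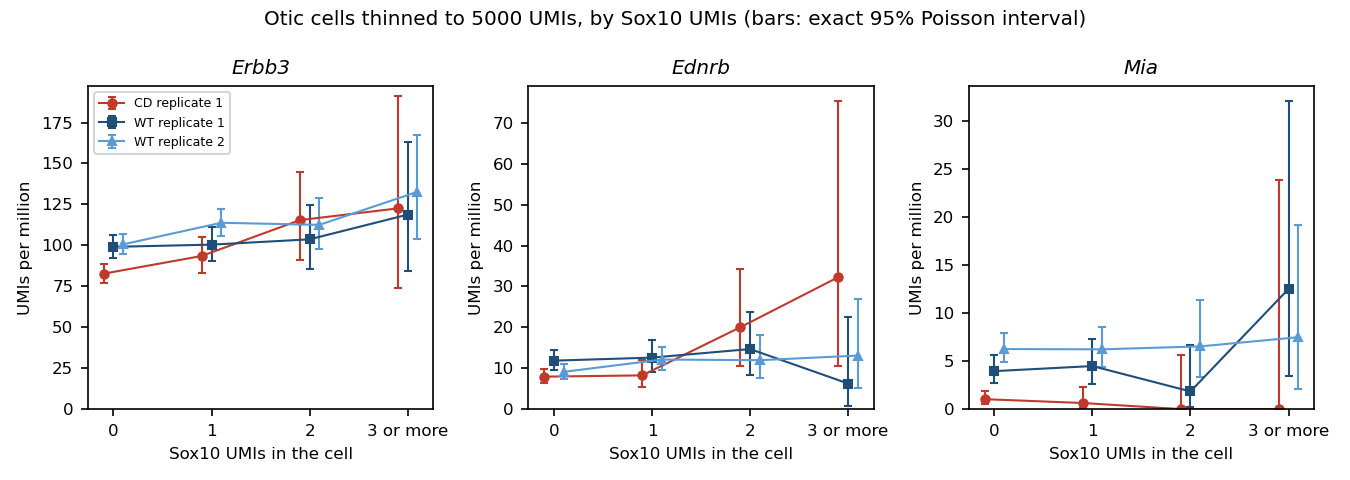
Level of Erbb3, Ednrb and Mia (y axis, CPM) in otic cells thinned to 5000 UMIs, grouped by the Sox10 UMIs of the cell (x axis), with 1 line per library and bars for the exact 95% Poisson interval (counting error only). Erbb3 reaches 119 to 133 CPM at 3 or more Sox10 UMIs in all 3 libraries, and the CD line of Mia starts at 1.03 CPM, below 3.95 and 6.24 CPM.

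The otic UMIs of Fabp7 and Foxd3 came from few cells. The 10 cells richest in Foxd3 held 82.1% of its otic UMIs in CD, 73.9% in WT replicate 1 and 56.2% in WT replicate 2. For Fabp7 the 10 richest cells held 44.3, 43.8 and 39.4%, and a single cell held up to 57 UMIs. The same share was 14.4 to 17.8% for Ednrb, 9.39 to 24.6% for Mia and 1.61 to 2.43% for Erbb3. Erbb3 was thus spread over the epithelium, whereas the otic values of Fabp7 and Foxd3 describe a minority of cells.

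That minority carried genes of neural tube and crest. Otic cells with a UMI of Pax3, Pax6 or Tfap2b (genes chosen after the data had been seen) made up 3.06% of otic cells in CD, 3.31% in WT replicate 1 and 2.69% in WT replicate 2, and held 4.11, 4.26 and 3.63% of all otic UMIs. They held 54.7, 56.8 and 42.9% of the Fabp7 UMIs and 64.3, 63.8 and 73.3% of the Foxd3 UMIs. For Ednrb the shares were 14.5, 9.42 and 17.7%, above the share of all UMIs in each library. For Erbb3 (4.05, 3.55 and 3.80%) and Mia (3.28, 5.91 and 2.89%) they lay within about 2 percentage points of it. Scrublet called 21.0, 27.9 and 15.5% of otic cells with Fabp7 as doublets, and 26.7, 26.9 and 17.3% of those with Foxd3, against 5.15, 4.26 and 5.78% of all otic cells. Without the called doublets, the log2 ratio of CD to the WT mean was -0.49 for Fabp7 and -1.67 for Foxd3. Without the Pax3, Pax6 or Tfap2b cells, Fabp7 stood at 2.57, 3.16 and 3.84 CPM in CD, WT replicate 1 and WT replicate 2, and Foxd3 kept 10, 25 and 39 UMIs.

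The transcripts found beside each gene differed accordingly. Otic cells with Foxd3 held 27.2, 23.0 and 57.3 CPM of the neural crest and dorsal neural tube gene Pax3 in CD, WT replicate 1 and WT replicate 2, against 1.25, 1.46 and 0.653 CPM in the other otic cells. Otic cells with Fabp7 held 51.3, 69.0 and 9.88 CPM of Hes5, a Notch target of neural progenitors, against 3.33, 3.91 and 2.83 CPM. Cells with Mia showed no such company in the WT libraries, with 0.972 and 0.397 CPM of Pax3 against 1.89 and 1.90 CPM. In CD they held 5.28 CPM of Pax3 against 1.34 CPM. In the WT libraries they held more of the otoconial matrix gene Oc90 (877 against 495 CPM, and 1437 against 922 CPM). In CD the Mia cells held 91.4 CPM of Oc90 against 80.8 CPM. The mesenchyme marker Prrx1 was also higher in otic cells with Fabp7. It stood at 55.9, 45.1 and 73.9 CPM in CD, WT replicate 1 and WT replicate 2, against 16.8, 6.35 and 37.9 CPM. These are descriptions of cells chosen by a sparse count, with higher depths in cells that hold a UMI.

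**Figure D4:**
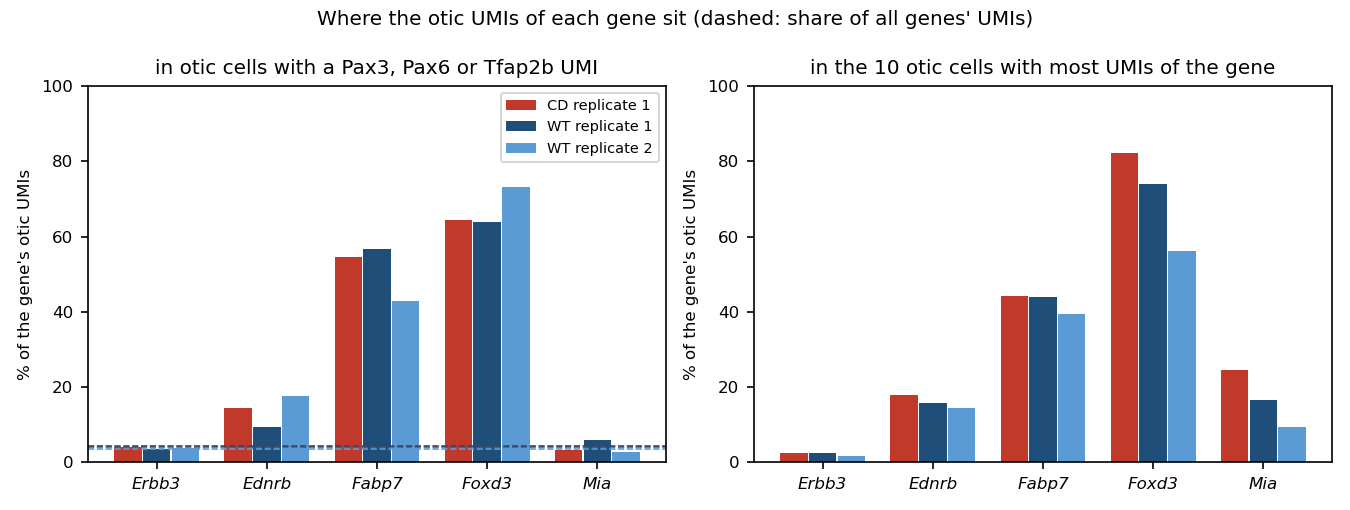
Share of the otic UMIs of each gene (y axis, percent) that lies in otic cells with a Pax3, Pax6 or Tfap2b UMI (left) and in the 10 cells with most UMIs of that gene (right), with 1 bar per library. The dashed lines at 3.63 to 4.26% give the share of all genes; Fabp7 (42.9 to 56.8%) and Foxd3 (63.8 to 73.3%) stand far above them.

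Within the otic epithelium, Erbb3 was low in neurogenic cells and Ednrb was high in prosensory cells. Cells thinned to 5000 UMIs were grouped by at least 3 UMIs of dorsal genes (Dlx5, Dlx6 and Gbx2), posterolateral genes (Otx1 and Otx2), neurogenic genes (Neurog1 and Neurod1) or prosensory genes (Lfng and Fgf10), none of which is one of the 5. The groups are not exclusive. In CD, WT replicate 1 and WT replicate 2, 15, 13 and 8 cells met more than 1 definition and are counted in each. Of the 4 domains, Erbb3 was lowest in neurogenic cells, at 17.5 CPM in CD (Poisson interval 8.41 to 32.3), 42.5 CPM in WT replicate 1 (27.2 to 63.2) and 39.7 CPM in WT replicate 2 (26.8 to 56.7). Posterolateral cells held 83.3 CPM in CD (56.2 to 119), 141 CPM in WT replicate 1 (110 to 179) and 169 CPM in WT replicate 2 (140 to 201). Neurogenic cells were thus the lowest and posterolateral cells, in the WT libraries, the highest of the 4 domains for the neuregulin receptor.

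Ednrb had its highest level among the 4 domains in prosensory cells. There it stood at 63.6 CPM in CD (34.8 to 107), 90.5 CPM in WT replicate 1 (54.5 to 141) and 72.7 CPM in WT replicate 2 (37.6 to 127), from 14, 19 and 12 UMIs in 44, 42 and 33 cells. Cells of more than 1 domain held 0, 9 and 0 Ednrb UMIs in the same order. How many of the 19 UMIs in WT replicate 1 came from such cells was not separated. Otic cells of none of the 4 domains held 9.07, 11.1 and 10.9 CPM, and with 99, 110 and 179 UMIs they carried most of the Ednrb transcripts. The prosensory level was higher in 3 of 3 libraries, with intervals clear of those cells, and Ednrb was seen in 13.6, 21.4 and 18.2% of prosensory cells against 3.48, 4.52 and 3.86%. Cells with Ednrb also held more Sox2 (179, 160 and 168 CPM) than the other otic cells (104, 99.3 and 82.3 CPM).

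Mia could not be placed as clearly. Dorsal cells held 0.593 CPM in CD, with 6.99 and 11.1 CPM in WT replicates 1 and 2, from 1, 10 and 20 UMIs. Cells of none of the 4 domains held 0.917, 4.22 and 6.14 CPM, with intervals that overlapped those of the dorsal cells. In posterolateral cells Mia had 0, 0 and 1 UMIs, which allows up to 8.33 CPM in CD and 6.06 CPM in WT replicate 1, so a lower level there was not detectable. Fabp7 had 0 UMIs in posterolateral cells of all 3 libraries, with limits of 8.33, 6.06 and 4.08 CPM.

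**Figure D5:**
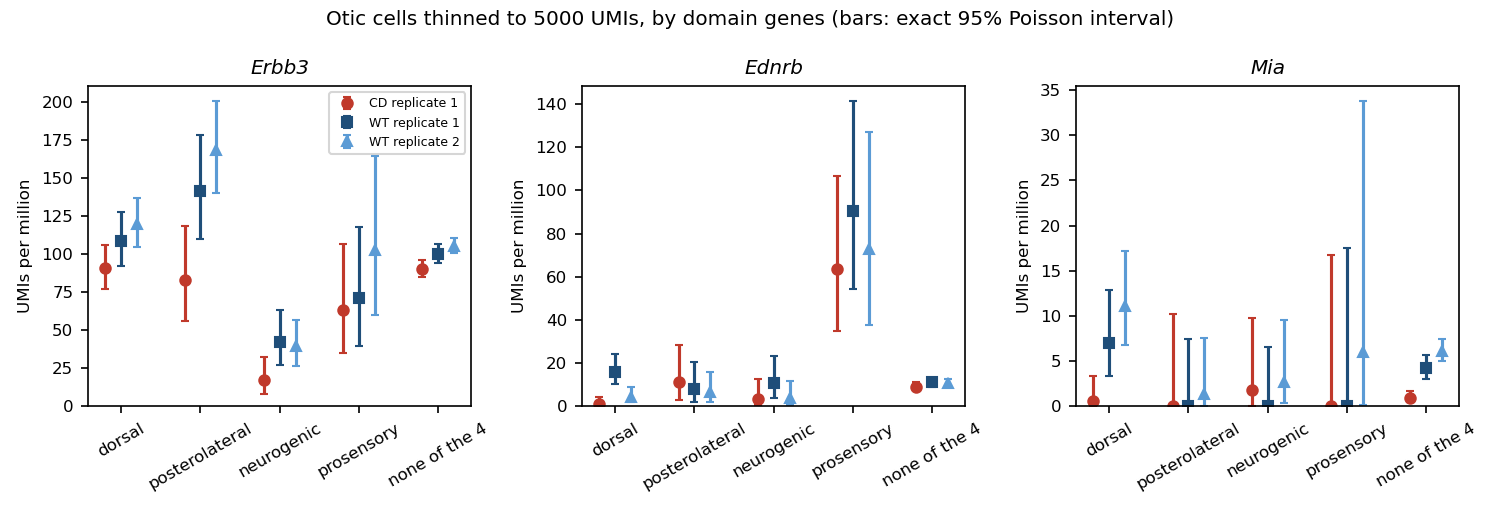
Level of Erbb3, Ednrb and Mia (y axis, CPM) in otic cells thinned to 5000 UMIs, by domain (x axis), with 1 point per library and bars for the exact 95% Poisson interval (counting error only). Erbb3 is lowest in neurogenic cells (17.5 to 42.5), and Ednrb stands at 63.6 to 90.5 in prosensory cells.

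Crest and glia cells, which the choice of the genes did not use, allowed a test of 4 of them, and none passed. Erbb3 stood at 130 CPM in CD, with 126 and 130 CPM in WT replicates 1 and 2 (edgeR log2 fold change 0.02, 95% interval -0.43 to 0.48). Ednrb stood at 217, 210 and 188 CPM (0.12, interval -0.30 to 0.55), Foxd3 at 180, 216 and 161 CPM (-0.07, interval -0.50 to 0.37), and Fabp7 at 390, 371 and 591 CPM (-0.30, interval -0.70 to 0.10). Erbb3 and Ednrb in CD lay above both WT libraries, as did 31.9% of all genes there, and Foxd3 and Fabp7 lay between them. The adjusted p was 1.00 for each gene, 0 of the 4 had an unadjusted p under 0.05, and DESeq2 called 0 of 5. Over all genes 0.282% of 11719 passed. Mia, with 0, 7 and 6 UMIs, was under the count filter.

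The intervals take the spread of the lone CD library from the WT pair and from other genes, so they do not measure how far CD libraries vary. Sox10 stood at 303, 273 and 278 CPM in crest and glia (log2 fold change 0.14), a class that itself requires 2 Sox10 UMIs per cell. Summed neuron markers in this class were 279 CPM in CD, with 421 and 575 CPM in WT replicates 1 and 2; their part in these values was not tested.

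Mesenchyme, the class used for comparison, also showed no member past the threshold. Fabp7 stood at 26.8 CPM in CD, with 58.5 and 33.0 CPM in WT replicates 1 and 2 (edgeR log2 fold change -0.77, SE 0.30, adjusted p = 1.00) and was the 1 gene of 5 with an unadjusted p under 0.05 (0.0305). Erbb3 stood at 2.63, 2.79 and 5.83 CPM, Ednrb at 4.95, 6.19 and 4.52 CPM, Foxd3 at 2.21, 3.45 and 2.01 CPM, and Mia at 0.606, 0.486 and 0.745 CPM. DESeq2 called 0 of 5, and 0.0384% of 15611 genes passed the edgeR test. In these summed data, fewer cells with a gene and less RNA per cell cannot be told apart.

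The pathways around the 5 genes were described from 7 lists of 79 genes, of which 68 could be tested in otic cells. In the list of other glial and crest genes 2 fell and 0 rose; over all genes 0.0758% fell and 0.0175% rose. That list had a median log2 fold change of -0.23 over 29 tested genes, against a median of 0.00 over all genes. In it 15 genes lay below both WT libraries, a position held by 29.8% of all genes. The lists were chosen with earlier results of these data known, so the counts are not an independent test. Of 39 tested genes in the other lists edgeR called 0, 7 had an unadjusted p under 0.05, and DESeq2 called Sox9 and Sox10. The 14 tested genes of the neuregulin and ERBB list had a median of 0.11, with 10 above both WT libraries, a position held by 33.2% of all genes. Within it Pik3r1, a regulatory subunit of PI3 kinase, stood at 52.1, 39.3 and 37.7 CPM in CD, WT replicate 1 and WT replicate 2 (adjusted p = 0.757).

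Ligands and relatives of the members stayed under the threshold. In the endothelin list of 11 tested genes (median -0.06), the ligand gene Edn1 stood at 0.370, 0.685 and 1.17 CPM (adjusted p = 1.00) and Mme, a peptidase, at 22.2, 31.4 and 38.1 CPM (adjusted p = 0.442). Among relatives of Fabp7, Crabp1, which binds retinoic acid, stood at 140, 112 and 111 CPM (adjusted p = 1.00). Foxd1 and Foxd2 had log2 fold changes of -0.22 and -0.24. Mia2 and Mia3, relatives of Mia that act in the secretory pathway, had -0.03 and 0.15.

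Across 23 profiles of cell class and library with at least 50 cells each, the genes most like each member were ranked among 8314 genes by Pearson correlation of log2(CPM + 1). The profiles share libraries, and the values are descriptions. Closest to Erbb3 were Dlx2 (r = 0.97), Txndc16 (0.94) and Aldh7a1 (0.94), and closest to Ednrb were Rpia (0.90), Snx1 (0.87) and Rab10os (0.87). Fabp7 was followed by Pax3 (0.97), Hoxb3os (0.94) and Hoxb2 (0.94). Foxd3 ran with the pigment cell genes Pmel (0.96) and Dct (0.93) and with Apaf1 (0.90). Mia was followed by Cnmd (0.80), Tbc1d10a (0.78) and BC006965 (0.78). Cnmd, which encodes the cartilage matrix protein chondromodulin, stood at 15.5, 92.2 and 97.9 CPM in otic cells of CD, WT replicate 1 and WT replicate 2. It was picked for likeness over profiles that include these otic values, so the difference is a description.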

How the data were processed

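Per the labels' protocols, otic vesicles were pooled, digested and run on the Chromium 3′ kit v3.1. Cell Ranger 6.0 (6.0.0 per the file headers) and build mm39 are named in the submitters' processing notes. The values deposited by the authors are raw UMI counts of genes in single barcodes, with no normalisation recorded. A barcode was kept from 1000 genes upward unless over 10% of its UMIs were mitochondrial. Cells were assigned by UMIs of marker genes: otic (Epcam at least 1; Fbxo2, Hmx2, Hmx3 and Pax2 at least 2 together), crest and glia (Sox10 at least 2, no Epcam, at most 1 UMI of Fbxo2, Hmx2 and Hmx3) and mesenchyme (Prrx1 and Twist1 at least 2, no Epcam). Doublets called by Scrublet (scanpy 1.11.5, expected rate 5%) took 2.80 to 3.39% of kept cells per library. They were kept in the main results and left out in an alternative.

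Cells are not replicates, so UMIs were summed per library and class and tested with edgeR 4.0.16 in R 4.3.3 (TMM, filterByExpr, quasi-likelihood test, Benjamini-Hochberg over all genes, threshold 0.05), which was tested on simulated data. The design has 1 residual degree of freedom, from the WT pair, so the spread of CD is taken from that pair; in crest and glia the prior degrees of freedom were infinite, so the spread of a gene's own libraries hardly enters. A permutation of 1 against 2 libraries cannot give a p under 0.333, so none was run. DESeq2 1.42.0, other filters, thinning to 5000 UMIs per cell (seed 1) and stricter classes were alternatives.

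The 5 genes and the lists were chosen with earlier results of these data known. Named beside them are Sox8, Sox9 and Sox10, up to 4 genes per list past the threshold in otic cells or the 2 of smallest p, marker genes, and the 3 genes most like each member; some genes of these lists are not reported here. Genes considered for likeness had a mean of at least 10 CPM and were not predicted, ribosomal, mitochondrial, haemoglobin, Xist or Y-linked genes. SE is the log2 fold change over the square root of the F statistic. RefSeq places Ednrb within the span of a non-coding gene, Gm35197, and the counting of reads shared by overlapping genes is not given in the sources used here.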

Additional observations from a re-analysis of the deposited data

Results flagged for a closer look

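For 3 genes the CD library lay below both WT libraries in otic cells and above both in crest and glia cells. The log2 ratio of CD to the WT mean was -0.29 in otic cells and 0.02 in crest and glia for Erbb3, -0.62 and 0.13 for Ednrb, and -0.79 and 0.14 for Sox10. The difference between the classes was not tested. For Sox10 the comparison is limited by the crest and glia class itself, which holds only cells with at least 2 Sox10 UMIs. Leaving out WT replicate 1 or the doublets, thinning, or a higher Sox10 minimum put the Erbb3 ratio in crest and glia below 0.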

How the results depend on the processing

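No paired analysis was possible because CD and WT share only replicate number 1. Leaving out a WT library leaves no residual degree of freedom, so it gives values and no test. The 5 genes lay below every WT library kept in otic cells under each of the 9 alternatives, 2 of which keep only 1 WT library; their choice fixes this direction. Thinning moved Ednrb from -0.62 to -0.39 and Fabp7 from -0.37 to -0.23. These thinned ratios use TMM-scaled CPM. In plain CPM after thinning, Fabp7 in otic cells of none of the 4 domains stood at 4.77 CPM in CD. The WT replicates 1 and 2 had 4.72 and 6.38 CPM there, so CD did not lie below WT replicate 1 in those cells. In crest and glia, Erbb3 reversed to -0.020 without doublets, -0.076 thinned and -0.023 with stricter classes, and ranged from -0.011 to 0.047 without a WT library, and Ednrb reversed to -0.052 with stricter classes. The 16 genes past the threshold in otic cells became 8 and 9 with looser and stricter cell filters, 60 with DESeq2, 155 without a count filter, 6 without doublets, 29 thinned, 10 with stricter classes and 4 without Pax3, Pax6 or Tfap2b cells, an alternative added after seeing the data. The 33 in crest and glia became 21 with the looser filter, 4 with DESeq2, 9 without TMM, 0 without doublets (168 with an unadjusted p under 0.05) and 11 thinned. The 6 in mesenchyme became 54 without a count filter, 0 without doublets (144 with an unadjusted p under 0.05) and 16 thinned. Sox10 in otic cells passed the threshold in 2 of 9 alternatives and Sox9 in 3 of 9. Foxd3 and Mia had the fewest otic UMIs of the 5 genes in each library, and without TMM the median of all otic genes moved to 0.06.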
